A study of Canis lupus familiaris with 186 samples.

Results

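Primary osteosarcomas with much and with little IRX1 mRNA were compared across all other genes. IRX1 encodes a homeodomain transcription factor of the Iroquois family. The dogs were ranked by IRX1 CPM (counts scaled to the library total) among the 186 dogs with a GS-1 cluster, so the groups were chosen by the IRX1 level itself. The 47 dogs at or above the 75th percentile are called IRX1-high, the 47 at or below the 25th percentile IRX1-low, and the 92 others are called the middle dogs. The values that chose the dogs are a description and carry no test, and IRX1 was left out of every count below.

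The dogs were privately owned pets with naturally occurring appendicular osteosarcoma that varied in age, breed and sex. Tumor tissue was taken before treatment in the trials COTC021 and COTC022, in which the limb was amputated and carboplatin was given, in some dogs with rapamycin. GS-1 is a gene signature by which the study divided the same dogs into a favorable prognosis (FP) and a poor prognosis (PP) cluster. All samples are bulk tumor RNA, so fewer cells of a type and less RNA per cell cannot be told apart.

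Osteosarcoma is a tumor of mesenchymal cells that lay down bone matrix. Iroquois genes sit in clusters in the genome and, together with the HOX, DLX, LHX, LMX and BARX homeobox genes, help to set position and shape in the embryo, including in the limb bud. Cartilage of the growth plate signals through Indian hedgehog and fibroblast growth factor receptors, osteoblasts make the matrix, and osteoclasts of the monocyte lineage resorb it.

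IRX1 lies on chromosome 34 of the GSD_1.0 assembly, at 9682784 to 9688233. Its level ran from 10.3 to 40.7 CPM in the IRX1-high dogs, with a median of 16.8, and from 0 to 1.19 CPM in the IRX1-low dogs, with a median of 0.449. The 10 libraries with no IRX1 count and the 34 with under 10 counts were all IRX1-low. At the limits, the lowest IRX1-high dog had 10.28 CPM and the dog just outside 10.23 CPM, while the highest IRX1-low dog had 1.19 CPM and the dog just outside 1.23 CPM. The dogs therefore form a continuum that the limits divide. Library totals did not separate the groups, with medians of 10502980 counts in IRX1-high and 10966793 in IRX1-low dogs.

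**Figure D1:**
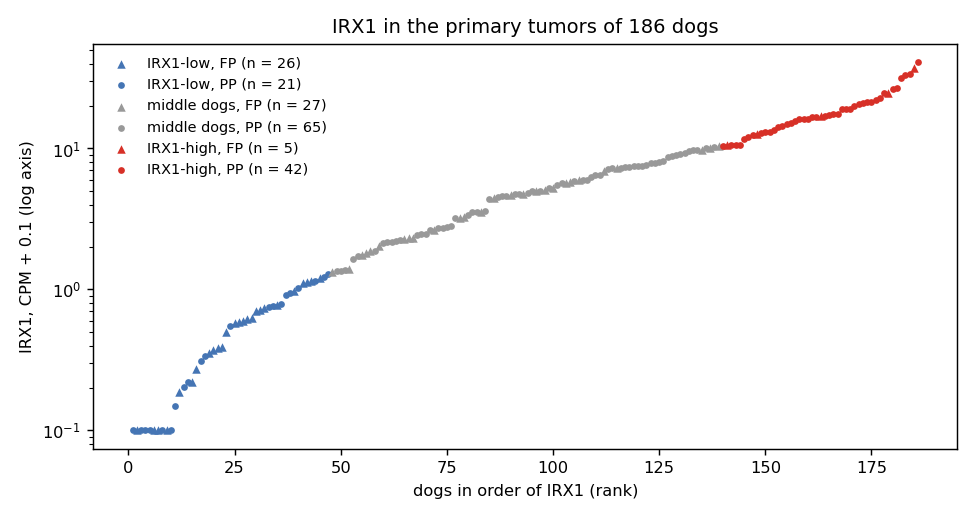
IRX1 in CPM plus 0.1 on a log axis for each of 186 dogs in rank order, with the groups in color, FP dogs as triangles and PP dogs as circles. The curve has no step at either limit, and 26 of the 47 IRX1-low dogs but 5 of the 47 IRX1-high dogs are FP.

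The clusters were spread unevenly over the groups. FP dogs were 55.3% of the IRX1-low dogs (26 of 47) and 10.6% of the IRX1-high dogs (5 of 47), and the median IRX1 level was 1.69 CPM in the 58 FP and 7.09 CPM in the 128 PP dogs. The cluster was therefore a term in the model. The trials were more even, with 27 IRX1-high and 22 IRX1-low dogs from COTC021 and 20 and 25 from COTC022. Columns of the deposited table are named in 2 styles, with a doubled or a single separator, and the style was also a term in the model. The doubled style was carried by 13 IRX1-high and 15 IRX1-low libraries.

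Among the 94 libraries of both groups, 5 stood apart and were chosen as such after their values were seen. In 1 IRX1-low library (COTC022, FP), the osteoblast factor SP7 was at 0.0633 CPM against a median of 23.2 CPM over 186 dogs, and the T cell gene CD3E was at 880.4 CPM, its highest level in any dog, so this library goes against the label of a bone tumor. In 3 IRX1-high libraries, 2 from COTC021 and 1 from COTC022, LUM was at 0.0812, 0.269 and 6.88 CPM against a median of 1955 CPM, with SP7 at 28.0 CPM or more. The last, an IRX1-low library from COTC022, held 129943 CPM of skeletal muscle genes against a median of 83.4 CPM. The counts over all genes and over some of the lists are given with and without these 5 libraries.

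Of 13421 genes tested besides IRX1, 1553 (11.6%) were higher and 1565 (11.7%) were lower in IRX1-high tumors at an adjusted p under 0.05 with limma-voom. Most differences were small, with a median fold of 1.39 among the higher and 1.40 among the lower genes. The study's definition of a differentially expressed gene (DEG), which adds a fold change above 3, was met by 93 higher genes (0.693%) and 26 lower genes (0.194%). The balance of DEGs turned over with the tool, to 49 higher and 96 lower with edgeR and 48 and 60 with DESeq2. Without the 5 libraries, 1119 genes (8.34%) were higher and 1247 (9.29%) were lower. The median log2 fold change over all genes tested was -0.01, which the scaling of the libraries sets near 0.

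The 92 middle dogs took no part in that comparison. Over them, the slope of each gene on log2(IRX1 CPM + 0.5) was positive and past the threshold for 64 genes (0.477%) and negative for 21 genes (0.156%). Of the 3118 genes called between the IRX1-high and IRX1-low dogs, 2827 (90.7%) had a slope of the same sign in the middle dogs, against 72.0% of all genes tested. The slope of 1019 of them had the same sign and an unadjusted p under 0.05, and that of 5 had the opposite sign and such a p. Of 1721 genes called within COTC021, 1509 (87.7%) had the same sign within COTC022, against 69.4% of all genes, and 413 of them had an unadjusted p under 0.05 there as well.

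The number of calls differed between subsets of the dogs. Limma-voom called 751 higher and 970 lower genes within COTC021, but 1 higher and 0 lower within COTC022, where 1664 genes had an unadjusted p under 0.05. The 28 libraries with a doubled separator gave 0 calls and 1921 genes at an unadjusted p under 0.05. A difference in the change with IRX1 between the trials passed the threshold for 0 genes (662 at an unadjusted p under 0.05, 4.93%). Between FP and PP dogs it passed for 0 (870, 6.48%, lowest adjusted p = 0.099), and between the name styles for 0 (428, 3.19%). With 5 FP IRX1-high dogs and 28 doubled-separator libraries, these fits could miss differences and do not show that the change was the same.

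IRX2, the neighbor of IRX1 in the same Iroquois cluster, rose in IRX1-high tumors. It was measured at 0, 3.54 and 15.6 CPM (lowest, median, highest) in IRX1-high and at 0, 0.349 and 2.60 CPM in IRX1-low dogs. Of the 47 IRX1-high dogs, 45 were above the IRX1-low median, although the groups overlapped at their ends. The log2 fold change was 3.11 (SE 0.44, adjusted p = 9.9e-07), with 3.24 (adjusted p = 1.1e-04) within COTC021 and 3.07 within COTC022, where it did not pass (adjusted p = 0.13). At least 10 IRX2 counts were present in 44 of 47 IRX1-high and 11 of 47 IRX1-low libraries, so the low level rests on few counts.

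The Iroquois genes of the other cluster, on chromosome 2, gave small values. IRX3 had medians of 17.3 and 13.3 CPM in IRX1-high and IRX1-low dogs, with a log2 fold change of 0.31 (SE 0.26, adjusted p = 0.39), and IRX5 medians of 7.12 and 4.48 CPM, with 0.22 (SE 0.29, adjusted p = 0.62). IRX4, on chromosome 34, and IRX6 did not pass the filter on low counts. IRX4 had no count in 40 of 47 IRX1-high and 46 of 47 IRX1-low libraries. The expected counts of IRX3 and IRX5 were not whole in 151 and 145 of 186 libraries, which marks reads divided between genes, against 17 for IRX1 and 19 for IRX2.

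**Figure D2:**
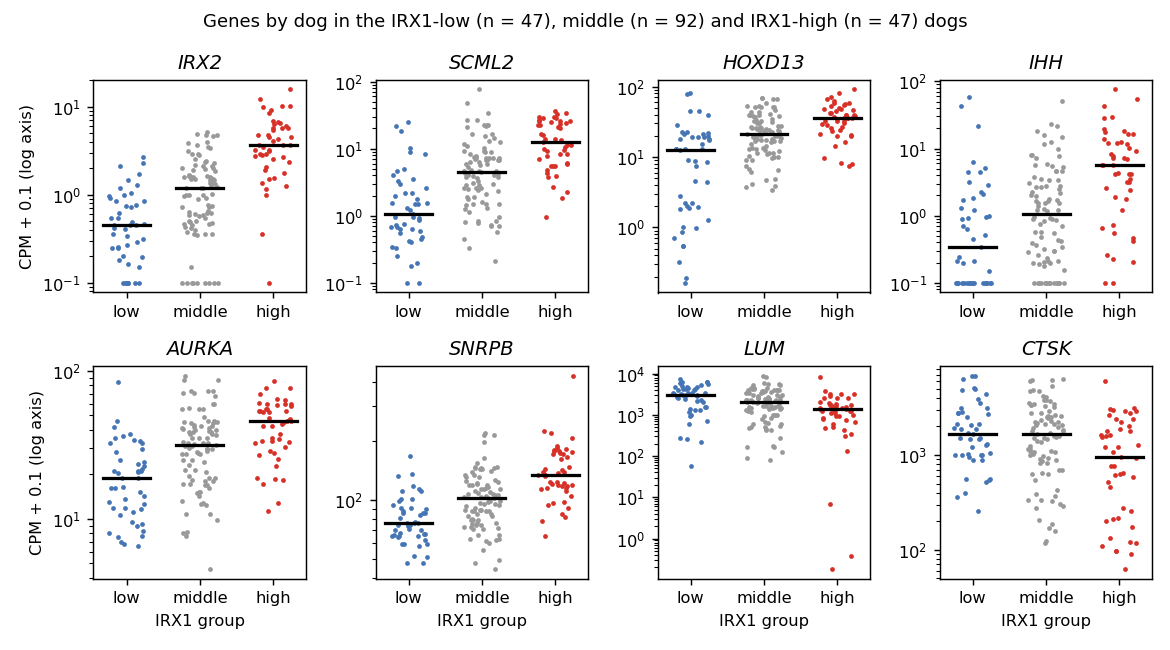
Levels of 8 genes in CPM plus 0.1 on log axes, with 1 point for each dog and a line at the median, for IRX1-low (n = 47), middle (n = 92) and IRX1-high (n = 47) dogs. The median of IRX2 was 0.349 CPM in IRX1-low, 1.09 CPM in middle and 3.54 CPM in IRX1-high dogs, and LUM was near 0 in 3 IRX1-high dogs.

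The 15 largest increases included genes best known from neurons. GRIA2, a subunit of the AMPA glutamate receptor, was at 0, 12.9 and 173.3 CPM in IRX1-high and at 0, 0.216 and 27.5 CPM in IRX1-low dogs, a log2 fold change of 3.85 (SE 0.95, adjusted p = 0.0024). The groups overlapped, and 5 IRX1-high dogs lay below the IRX1-low median of GRIA2. GRM4, a metabotropic glutamate receptor, rose by 2.59 (SE 0.63, adjusted p = 0.0020), and DPYSL5, a collapsin response mediator of growing axons, by 2.87 (SE 0.55, adjusted p = 0.00013). EPHB2, a receptor tyrosine kinase for ephrins, rose by 2.56 (SE 0.60, adjusted p = 0.0015).

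SCML2, a Polycomb group protein, rose in nearly all IRX1-high dogs. Its level was 0.853, 12.5 and 36.6 CPM in IRX1-high and 0, 0.945 and 24.9 CPM in IRX1-low dogs, and 46 of 47 IRX1-high dogs were above the IRX1-low median. The log2 fold change of SCML2 was 2.71 (SE 0.41, adjusted p = 4.0e-06), and it was 3.52 within COTC021 and 1.41 within COTC022. DDX43, an RNA helicase otherwise known from testis, rose by 2.69 (SE 0.69, adjusted p = 0.0033) and was also past the threshold in the middle dogs, with a slope of 1.16 for each doubling of IRX1 (adjusted p = 0.041).

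Other genes among the 15 largest were ZIC1, ALDH1A1, SLC9A2, H19 and GPC3. ZIC1, a zinc finger transcription factor of the neural crest and somites, rose by 2.53 (SE 0.64, adjusted p = 0.0030), from a median of 0.220 to 3.73 CPM, and ZIC5, the only other gene of its family that passed the filter, rose by 2.40 (SE 0.55, adjusted p = 0.0011), with an edgeR value of 0.67 (adjusted p = 0.27). GPC3, a cell surface heparan sulfate proteoglycan, was at 0.617, 16.5 and 155.9 CPM in IRX1-high and 0.0822, 3.27 and 117.2 CPM in IRX1-low dogs. GPC3 rose by 2.41 (SE 0.46, adjusted p = 0.00014). ALDH1A1, which makes retinoic acid, and SLC9A2, a sodium-proton exchanger, rose by 2.47 (SE 0.71, adjusted p = 0.0083) and 2.46 (SE 0.62, adjusted p = 0.0029). EdgeR gave smaller values for all 15 genes, from 2.92 for GRIA2 to 0.53 for H19, and did not call H19 and IHH. In the middle dogs all of the 15 but H19 had a positive slope, and DDX43 alone passed the threshold. The slopes of ZIC1 and GPC3 there were 0.10 and 0.13 (adjusted p = 0.92 and 0.87). ALDH1A1 had medians of 4.71 CPM in IRX1-high, 4.73 CPM in middle and 1.98 CPM in IRX1-low dogs.

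H19, an imprinted long noncoding RNA, was at 0, 16.4 and 589.0 CPM in IRX1-high and 0, 1.08 and 327.3 CPM in IRX1-low dogs, with a log2 fold change of 2.44 (SE 0.90, adjusted p = 0.038). In the middle dogs the slope of H19 was -0.02. A family of imprinted genes was added after the values were seen. Of 16 that passed the filter, H19, MEST and PEG10 rose (18.8%, against 11.6% of all genes) and none fell. The median log2 fold change of the 16 was -0.0058, with 8 positive and 8 negative values. MEST, a hydrolase of fetal mesoderm, rose from a median of 23.7 to 97.8 CPM, a log2 fold change of 1.87 (SE 0.41, adjusted p = 7.0e-04). The edgeR p of H19 was 0.63 after adjustment, and PEG10 had 0.76 with edgeR (adjusted p = 0.15).

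**Figure D3:**
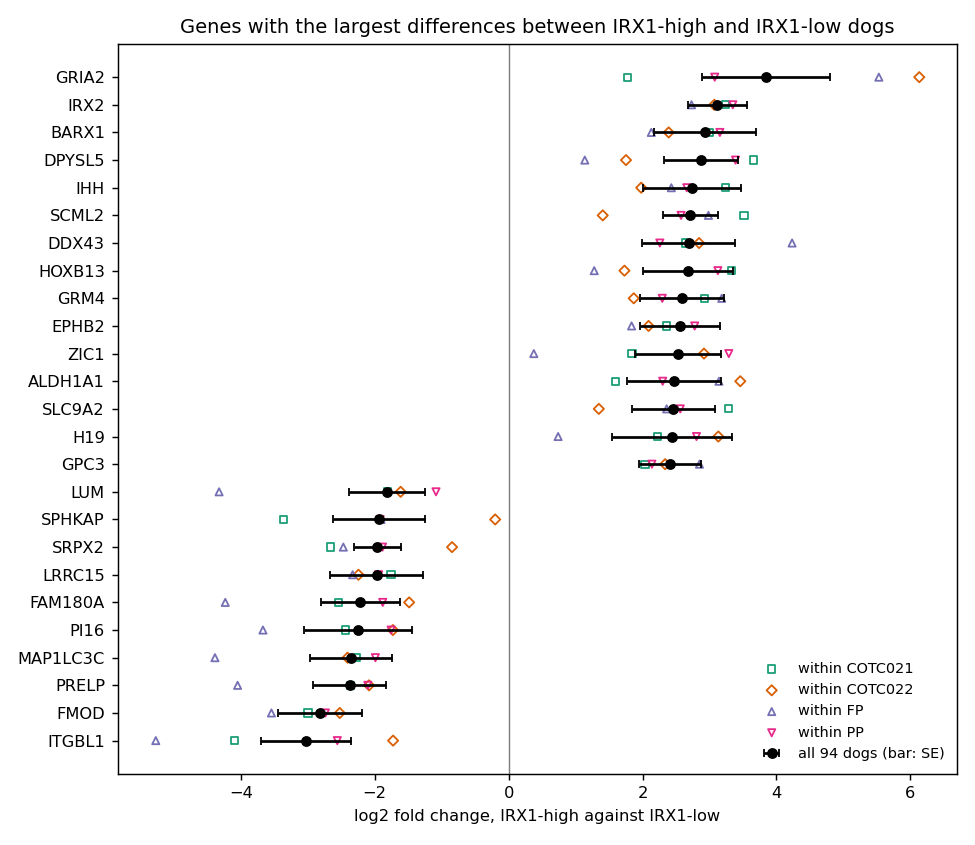
Log2 fold changes of the 15 genes with the largest and the 10 with the smallest value among called genes of the same sign in all 6 subgroups, over 94 dogs (black, bars are SE) and within each trial and cluster. IRX2 was between 2.73 and 3.35 in the 4 subgroups, whereas GRIA2 was at 1.77 within COTC021 and 6.13 within COTC022.

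Some posterior HOX genes and limb patterning factors were higher in IRX1-high tumors. HOXB13, BARX1, LHX2 and DLX1 among them belong to the study's ISA 4 signature, which was derived on these same dogs and contains IRX1. Of 18 posterior HOX genes 15 passed the filter. Of these 8 rose (53.3%, against 11.6% of all genes) and 0 fell, with a median log2 fold change of 0.99. Of 32 limb patterning transcription factors 26 passed, with a median of 0.61. Of these 11 rose (42.3%) and 1 fell (3.85%, against 11.7% of all genes). Without the 5 libraries that stood apart, 5 HOX genes and 6 limb factors rose, where 8.34% of all genes did. The medians were then 0.82 and 0.55. EdgeR called 5 HOX genes higher and 1 lower and 6 limb factors higher and 2 lower, and DESeq2 6 and 1 and 10 and 2. Within COTC022 the medians were 0.95 and 0.65, with no gene of either list past the threshold there.

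HOXD13, which patterns the digits, was at 7.29, 36.1 and 91.0 CPM in IRX1-high and 0.0633, 12.6 and 81.8 CPM in IRX1-low dogs. The log2 fold change of HOXD13 was 1.74 (SE 0.34, adjusted p = 2.1e-04), and 43 of 47 IRX1-high dogs were above the IRX1-low median. HOXD12, its neighbor, rose by 1.87 (SE 0.41, adjusted p = 8.4e-04), HOXB13 by 2.68 (SE 0.67, adjusted p = 0.0027), HOXB9 by 1.82 (SE 0.45, adjusted p = 0.0026) and HOXA9 by 0.99 (SE 0.23, adjusted p = 0.0011). HOXD11, HOXD10 and HOXA13 were the other 3 that rose, by 1.34, 0.95 and 0.74, and did not pass with edgeR or without the 5 libraries. HOXD9, beside HOXD10, had a log2 fold change of 0.15 (SE 0.16, adjusted p = 0.53).

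BARX1, a homeobox gene of the joints and jaw, had the largest value of the limb factors, at 0, 5.56 and 62.4 CPM in IRX1-high and 0, 0.148 and 26.1 CPM in IRX1-low dogs (log2 fold change 2.93, SE 0.76, adjusted p = 0.0037). LHX2, which keeps the limb bud growing, rose by 1.42 (SE 0.33, adjusted p = 0.0012), and LMX1B, which specifies dorsal limb, by 1.43 (SE 0.46, adjusted p = 0.019, and 0.052 with edgeR). DLX1, of the distal-less family, rose by 1.73 (SE 0.51, adjusted p = 0.011), with 1.26 (adjusted p = 0.069) without the 5 libraries. TBX15, a T-box factor of skeletal development, was the only limb factor called lower with limma-voom. It fell by 0.83 (SE 0.23, adjusted p = 0.0062), from a median of 36.4 to 23.8 CPM. These genes fell or rose over overlapping ranges in the 2 groups. Of the 26 limb factors 5 had a negative value, among them TBX18 (-0.74, adjusted p = 0.091) and PRRX1 (-0.59, adjusted p = 0.0504).

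Signals of cartilage and bone growth rose in part. IHH, the Indian hedgehog ligand of prehypertrophic chondrocytes, was at 0, 5.51 and 75.8 CPM in IRX1-high and 0, 0.240 and 59.0 CPM in IRX1-low dogs, with a log2 fold change of 2.74 (SE 0.73, adjusted p = 0.0046). EdgeR gave IHH a value of 1.25 that did not pass (adjusted p = 0.10). FGFR3, a receptor that restrains growth plate chondrocytes, was at 10.6, 97.2 and 407.0 CPM in IRX1-high and 1.19, 19.4 and 480.6 CPM in IRX1-low dogs, with 45 of 47 IRX1-high dogs above the IRX1-low median. Its log2 fold change was 1.76 (SE 0.34, adjusted p = 1.5e-04). Of 9 hedgehog genes that passed the filter, 2 rose (22.2%, against 11.6% of all genes) and 0 fell. The 2 were IHH and SMO, the signal transducer (0.52, adjusted p = 0.041, and 0.051 with edgeR). The target genes GLI1 and PTCH1 had values of 0.56 (SE 0.40) and 0.21 (SE 0.27) that did not pass.

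Of 19 cartilage genes that passed the filter, 5 rose (26.3%, against 11.6% of all genes) and 0 fell. The median log2 fold change was 0.44. EdgeR called 3 higher and 1 lower and DESeq2 5 and 1. Within COTC022, 8 of the 19 values were negative. IHH, FGFR3 and COL11A2 also belong to the ISA 4 signature that contains IRX1. Besides IHH and FGFR3 these were the matrix genes MATN4 (1.89, SE 0.45, adjusted p = 0.0019), COL9A2 (1.56, SE 0.48, adjusted p = 0.015) and COL11A2 (1.51, SE 0.49, adjusted p = 0.019, and 0.074 with edgeR). COL2A1, the main collagen of cartilage, ranged from 0.731 to 13921 CPM in IRX1-high and from 0 to 5852 CPM in IRX1-low dogs, and its log2 fold change of 1.75 had an SE of 0.91 (adjusted p = 0.15). SOX9, the master regulator of chondrocytes, had a value of 0.33 (SE 0.39, adjusted p = 0.58).

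Of 32 genes of the Wnt list that passed the filter, 6 rose (18.8%) and 1 fell (3.1%), against 11.6% and 11.7% of all genes. The median was 0.21. EdgeR called 4 higher and 3 lower and DESeq2 5 and 3. In the middle dogs the median slope was -0.04, with 15 positive and 17 negative slopes. The inhibitors and feedback targets that rose were SOST (2.19, SE 0.84, adjusted p = 0.048), APCDD1L (1.87, SE 0.51, adjusted p = 0.0056), NKD1 (1.36, SE 0.38, adjusted p = 0.0063), NOTUM (1.20, SE 0.39, adjusted p = 0.019) and APCDD1 (1.00, adjusted p = 0.025). The receptor FZD9 rose by 1.03 (adjusted p = 0.036), and the ligand WNT5B fell by 1.06 (SE 0.36, adjusted p = 0.024). With edgeR, APCDD1L (0.77, adjusted p = 0.19), NOTUM, APCDD1 and FZD9 did not pass, and SOST did not pass without the 5 libraries (adjusted p = 0.080). SFRP4, another inhibitor, had the lowest value of the list (-1.33, SE 0.52) and did not pass (adjusted p = 0.053). AXIN2, the usual reporter of Wnt signaling, had a log2 fold change of -0.28 (adjusted p = 0.28).

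Of 30 BMP and TGF-beta genes that passed the filter, 4 rose (13.3%) and 3 fell (10.0%), near the shares of all genes. BMP4, a ligand, ID1, a direct target of BMP signaling, and the inhibitors NOG and BAMBI rose by 0.94, 0.94, 0.95 and 0.88 (adjusted p = 0.024, 0.0017, 0.027 and 0.041). With edgeR none of BMP4, NOG and BAMBI passed, and their values were 0.58, 0.57 and 0.49. The 3 that fell are receptors. TGFBR1 was at 54.8, 96.5 and 262.9 CPM in IRX1-high and 59.5, 160.1 and 562.9 CPM in IRX1-low dogs (log2 fold change -0.65, SE 0.14, adjusted p = 5.2e-04), TGFBR2 fell by 0.68 (SE 0.16, adjusted p = 0.0013) and BMPR2 by 0.46 (adjusted p = 0.010, and 0.095 with edgeR). Of 16 Notch genes tested 0 rose and 2 fell (12.5%, near the share of all genes), NOTCH1 and HEY2, by 0.48 and 0.89 (adjusted p = 0.029 and 0.038), the latter not without the 5 libraries (adjusted p = 0.055).

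Of 19 osteoblast genes that passed the filter, 3 rose (15.8%) and 1 fell (5.26%), against 11.6% and 11.7% of all genes. The median was 0.42, and it was -0.21 within COTC022. EdgeR and DESeq2 each called 0 higher and 2 lower, and without the 5 libraries limma-voom called 2 higher and 0 lower. The 3 are distal-less homeobox genes, DLX3 (1.16, adjusted p = 0.047), DLX5 (0.76, adjusted p = 0.027) and DLX6 (1.14, SE 0.32, adjusted p = 0.0069), and all 47 IRX1-high dogs were above the IRX1-low median of DLX6, 8.25 CPM. The gene that fell was SPARC, a matrix protein also made by fibroblasts (-0.70, SE 0.23, adjusted p = 0.023, and 0.067 without the 5 libraries). RUNX2, the factor that commits cells to bone, had a value of 0.38 (SE 0.17, adjusted p = 0.092), and COL1A1, the main bone collagen, -0.53 (SE 0.33, adjusted p = 0.24).

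Osteoclast genes had negative values. Of 11 that passed the filter, 5 fell (45.5%, against 11.7% of all genes), 0 rose and all 11 had a negative value. The median log2 fold change was -1.10, against -0.01 for all genes tested. CTSK, the protease that digests bone collagen, was at 62.4, 961.9 and 6006 CPM in IRX1-high and 257.4, 1677 and 6868 CPM in IRX1-low dogs (log2 fold change -1.31, SE 0.35, adjusted p = 0.0047). TNFRSF11A, the receptor for RANKL, fell by 0.92 (SE 0.28, adjusted p = 0.013), SIGLEC15, a receptor of the fusing cells, by 1.49 (SE 0.54, adjusted p = 0.036, and 0.089 without the 5 libraries), ITGB3 by 0.82 (adjusted p = 0.022) and the osteoclast transcription factor NFATC1 by 0.46 (adjusted p = 0.020). The median was -1.53 within PP and -0.03 within FP dogs, a difference that was not tested for the list. The ranges overlapped widely, and the summed level of the list had a median of 3308 CPM in IRX1-high and 5450 CPM in IRX1-low dogs.

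Cell cycle genes were higher. All 27 genes of the proliferation list passed the filter, 23 rose (85.2%, against 11.6% of all genes) and 0 fell. The median log2 fold change was 0.59 (1.24 within FP, 0.42 within PP, 0.62 within COTC021 and 0.56 within COTC022). Without the 5 libraries, 13 of 27 rose, where 8.34% of all genes did, and the median was 0.45. AURKA, a kinase of the mitotic spindle, was at 11.2, 45.4 and 85.0 CPM in IRX1-high and 6.45, 18.6 and 83.8 CPM in IRX1-low dogs, a log2 fold change of 0.97 (SE 0.17, adjusted p = 3.8e-05), and 42 of 47 IRX1-high dogs were above the IRX1-low median.

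The rise in proliferation genes was seen in genes of replication and of mitosis. MCM2 and MCM5, parts of the replicative helicase, rose by 0.82 (SE 0.19, adjusted p = 0.0010) and 0.80 (SE 0.18, adjusted p = 0.0010), E2F1, which drives entry into S phase, by 0.72 (SE 0.17, adjusted p = 0.0015), and CCNB2, a mitotic cyclin, by 0.83 (SE 0.19, adjusted p = 0.0010). MKI67, the usual marker of cycling cells, had a value of 0.36 (SE 0.23, adjusted p = 0.25) and was at 0.07 within PP dogs. In the middle dogs MCM2 and FOXM1 were past the threshold, with slopes of 0.38 and 0.45 for each doubling of IRX1 (adjusted p = 0.043 and 0.037).

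**Figure D4:**
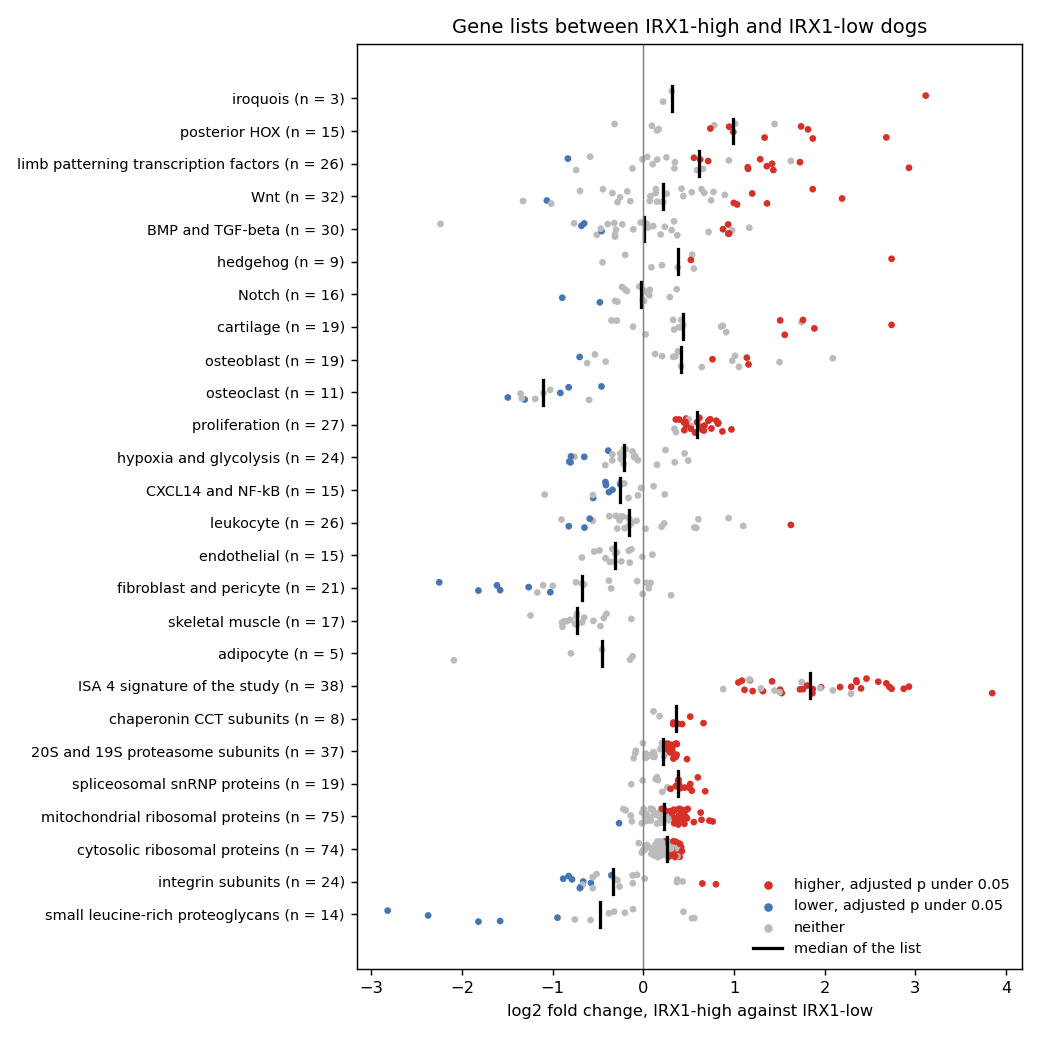
Log2 fold changes of the genes of each list that passed the filter, red and blue where the adjusted p was under 0.05, with a line at each list's median; the 7 families at the bottom were added after the values were seen. The proliferation genes lie between 0.34 and 0.97, and the osteoclast genes between -1.49 and -0.46.

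Part of the genes for making RNA and protein, and for folding and degrading protein, rose by small amounts. These families were chosen after the values were seen, from complete sets of symbols. Over all genes tested, 11.6% rose. Of 19 spliceosomal snRNP proteins 12 rose (median log2 fold change 0.38), of 8 chaperonin CCT subunits 6 (0.36), of 8 snoRNP proteins 5 (0.46), of 37 proteasome subunits 15 (0.22), of 75 mitochondrial ribosomal proteins 32 (0.23), of 30 RNA polymerase subunits 12 (0.24) and of 74 cytosolic ribosomal proteins 24 (0.26). Among all of these, 1 gene fell, MRPL17, which did not pass without the 5 libraries (adjusted p = 0.094). Without the 5 libraries the counts were 12, 6, 5, 10, 27, 8 and 9, where 8.34% of all genes rose. The cytosolic ribosomal proteins dropped most, to 9 of 74, near that share, and their pseudogenes can share reads with them. In the middle dogs 22 of the 74 cytosolic ribosomal proteins had a positive and 52 a negative slope (median -0.012).

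SNRPB, a core protein of the spliceosome, was at 64.8, 133.9 and 428.3 CPM in IRX1-high and 47.3, 75.6 and 165.8 CPM in IRX1-low dogs, with 46 of 47 IRX1-high dogs above the IRX1-low median. SNRPB rose by 0.68 (SE 0.09, adjusted p = 6.5e-07). CCT3, a subunit of the chaperonin that folds actin and tubulin, rose by 0.66 (SE 0.11, adjusted p = 1.8e-05), and all 47 IRX1-high dogs were above its IRX1-low median of 233.4 CPM. NOP56, which guides ribosomal RNA modification, rose by 0.58 (SE 0.09, adjusted p = 1.8e-05) and was past the threshold in the middle dogs as well (slope 0.21, adjusted p = 0.040).

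Apart from IRX2 and SCML2, the genes named for the smallest adjusted p-values had a moderate change and a small spread. ZCCHC3, a zinc finger protein of nucleic acid sensing, was at 17.9, 53.9 and 154.3 CPM in IRX1-high and 7.30, 20.9 and 48.3 CPM in IRX1-low dogs (log2 fold change 1.07, SE 0.13, adjusted p = 3.5e-08). MYOF, which repairs the cell membrane, was at 34.2, 91.2 and 258.1 CPM in IRX1-high and 73.4, 188.2 and 424.7 CPM in IRX1-low dogs (-1.15, SE 0.15, adjusted p = 3.5e-08). HIF1A, the oxygen-regulated transcription factor, fell by 0.87 (SE 0.14, adjusted p = 1.4e-05), and 46 of 47 IRX1-high dogs were below the IRX1-low median of 345.6 CPM.

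CAST, an inhibitor of calpain proteases, fell by 0.64 (SE 0.09, adjusted p = 1.4e-06) and was past the threshold in the middle dogs (slope -0.22, adjusted p = 0.048), as was ZCCHC3 (slope 0.29, adjusted p = 0.041). MTPN, which regulates actin capping, fell by 0.87 (SE 0.13, adjusted p = 3.8e-06). NEK7, a kinase of mitosis and the inflammasome, fell by 0.62 (SE 0.10, adjusted p = 6.6e-06), and all 47 IRX1-high dogs were below its IRX1-low median. THOC3, part of the complex that exports mRNA, rose by 0.77 (SE 0.12, adjusted p = 1.7e-05). IRX2, SCML2 and SNRPB complete the 10 smallest.

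The 10 largest decreases included matrix proteins. ITGBL1, a secreted protein with integrin-like repeats, was at 0, 6.23 and 184.9 CPM in IRX1-high and 0, 93.4 and 940.8 CPM in IRX1-low dogs, and 46 of 47 IRX1-high dogs were below the IRX1-low median. ITGBL1 had a log2 fold change of -3.03 (SE 0.68, adjusted p = 9.4e-04). The next were small leucine-rich proteoglycans, which bind collagen fibrils. FMOD was at 0, 30.7 and 1360 CPM in IRX1-high and 0.316, 241.0 and 5131 CPM in IRX1-low dogs (-2.82, SE 0.63, adjusted p = 9.2e-04), and PRELP fell by 2.37 (SE 0.55, adjusted p = 0.0013).

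LUM, of the same family, was at 0.0812, 1369 and 8163 CPM in IRX1-high and 58.0, 2958 and 7223 CPM in IRX1-low dogs, with a log2 fold change of -1.82 (SE 0.57, adjusted p = 0.016). Without the 5 libraries, 3 of which its own level had picked, it was -0.90 (adjusted p = 0.024). DCN fell by 1.58 (SE 0.55, adjusted p = 0.029) and BGN by 0.95 (SE 0.24, adjusted p = 0.0026). Of 14 members of the family that passed, 5 fell (35.7%, against 11.7% of all genes) and 0 rose. This set was added after the values were seen. Without the 5 libraries 4 fell, where 9.29% of all genes did, and DCN had -0.62 (adjusted p = 0.15).

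Of 21 fibroblast and pericyte genes, 6 fell (28.6%, against 11.7% of all genes) and 0 rose (median -0.68). Without the 5 libraries 4 fell (median -0.52), where 9.29% of all genes did. The median was -2.08 with 4 calls within FP and -0.40 with 0 calls within PP dogs, a difference that was not tested for the list. The 5 IRX1-high FP dogs included a library with LUM at 0.269 CPM and DCN at 0 CPM. The library with SP7 at 0.0633 CPM was an IRX1-low FP dog. Over all 94 dogs the genes that fell were LUM, DCN, DPT (-1.61, SE 0.44, adjusted p = 0.0054), PI16, a marker of adventitial fibroblasts (-2.25, SE 0.81, adjusted p = 0.035), PDPN (-1.03, SE 0.30, adjusted p = 0.0094) and TAGLN, a contractile protein (-1.26, SE 0.35, adjusted p = 0.0058). With edgeR, DCN, DPT and PI16 did not pass, at -0.82, -0.89 and -1.17. PDGFRA and THY1, found on most fibroblasts, had values of 0.06 (SE 0.27) and 0.03 (SE 0.25) that did not pass. SRPX2, a secreted ligand of the urokinase receptor, fell by 1.96 (SE 0.35, adjusted p = 4.9e-05). LRRC15, found on activated fibroblasts, had -1.97 (SE 0.70, adjusted p = 0.031), although its slope in the middle dogs was 0.44 and its adjusted p 0.062 without the 5 libraries. MAP1LC3C, FAM180A and SPHKAP complete the 10 largest decreases, at -2.35, -2.22 and -1.94.

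Of 24 integrin subunits that passed, a set added after the values were seen, 8 fell (33.3%) and 2 rose (8.33%). Over all genes 11.7% fell and 11.6% rose. Those that fell included ITGAV (-0.70, SE 0.15, adjusted p = 8.0e-04) and ITGA5 (-0.66, SE 0.16, adjusted p = 0.0019). Without the 5 libraries 5 fell, where 9.29% of all genes did. ITGA4 and ITGA2B, which are integrins of blood cells, rose by 0.80 (SE 0.23, adjusted p = 0.0079) and 0.65 (SE 0.23, adjusted p = 0.031, and 0.11 with edgeR). Of 11 laminin subunits, also added after the values were seen, 3 fell (27.3%) and 0 rose. LAMA3 fell most (-1.68, SE 0.45, adjusted p = 0.0046). The median of the laminins was -0.39 with 4 positive values, and it was 0.17 within COTC022.

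Of 15 genes of the CXCL14 and NF-kB list that passed, 6 fell (40.0%, against 11.7% of all genes) and 0 rose. The median was -0.26, and it was -0.02 within COTC022. NFKB1, REL, RELB, RELA, NFKBIA and TNFAIP3 fell, by between 0.25 and 0.55, with NFKB1 at -0.41 (SE 0.10, adjusted p = 0.0027). CXCL14, a chemokine, had medians of 53.8 CPM in IRX1-high and 168.6 CPM in IRX1-low dogs and a log2 fold change of -1.09 (SE 0.43, adjusted p = 0.053), which was -1.90 within COTC021 and 0.53 within COTC022. Of 24 hypoxia and glycolysis genes, 5 fell (20.8%, against 11.7% of all genes) and 0 rose. Without the 5 libraries 2 of the 24 fell, where 9.29% of all genes did. The falls were led by NDRG1 (-0.80, SE 0.16, adjusted p = 3.6e-04) and PFKFB3 (-0.82, SE 0.18, adjusted p = 6.3e-04). SLC2A1, a glucose transporter and target of HIF1A, was among the 19 that did not pass (0.24, SE 0.20, adjusted p = 0.39).

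Levels of markers of other cell types are given as measured, and their part in the results was not tested. Of 26 leukocyte genes that passed, 1 rose (CD3G, 1.63, SE 0.50, adjusted p = 0.014) and 3 fell (11.5%, against 11.7% of all genes), CD14 (-0.82, SE 0.24, adjusted p = 0.011), CSF1R (-0.65, adjusted p = 0.038) and TYROBP (-0.59, adjusted p = 0.026), of which CD14 alone passed without the 5 libraries. The summed leukocyte level ran from 262.8 to 5860 CPM in IRX1-high and from 250.8 to 20990 CPM in IRX1-low dogs. Of 15 endothelial genes limma-voom called 0 (median -0.31), edgeR 5 and DESeq2 8, all lower. Of 17 skeletal muscle genes limma-voom called 0 (median -0.74), edgeR 17 and DESeq2 5, all lower, and the summed muscle level ran from 13.0 to 4678 CPM in IRX1-high and from 9.63 to 129943 CPM in IRX1-low dogs. Of 5 adipocyte genes limma-voom called 0 (median -0.45), edgeR 1 and DESeq2 2, and of 2 erythroid or marrow genes it called 0 (median 0.34) and the others 1 each. The summed fibroblast and pericyte level ran from 1360 to 27785 CPM in IRX1-high and from 1285 to 74072 CPM in IRX1-low dogs.

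Genes near IRX1 were counted by their distance from it. Of 44 other genes annotated within 2 Mb of it, 11 were tested, 5 rose and 0 fell, with a median log2 fold change of 0.42. Within 5 Mb, a distance chosen after the values were seen, 19 of 40 genes (47.5%) rose and 0 fell, and 18 of 39 did so without IRX2. From 5 to 10 Mb 12 of 51 rose and 3 fell, beyond 10 Mb 3 of 43 rose and 9 fell, and on the other chromosomes 11.5% of 13147 genes rose. Within COTC021 and COTC022 the median of the genes within 5 Mb was 0.30 and 0.47. It was 0.06 for the slope in the middle dogs.

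The 5 genes within 2 Mb were IRX2, NDUFS6 (0.60, SE 0.15, adjusted p = 0.0021) and MRPL36 (0.77, SE 0.18, adjusted p = 0.0018) of the mitochondrion, CLPTM1L (0.42, SE 0.15, adjusted p = 0.033, and 0.057 without the 5 libraries) and TRIP13, an ATPase of chromosome segregation (0.88, SE 0.17, adjusted p = 2.0e-04). The 6 others that were tested did not pass, with values from -0.27 (SLC12A7, SE 0.27) to 0.42 (NKD2, SE 0.46). Slightly farther, CEP72, a centrosome protein, rose by 1.86 (SE 0.41, adjusted p = 7.2e-04), whereas TPPP, whose annotated span overlaps it, had -0.67 (SE 0.43, adjusted p = 0.25). DNA copy number was not analysed here.

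**Figure D5:**
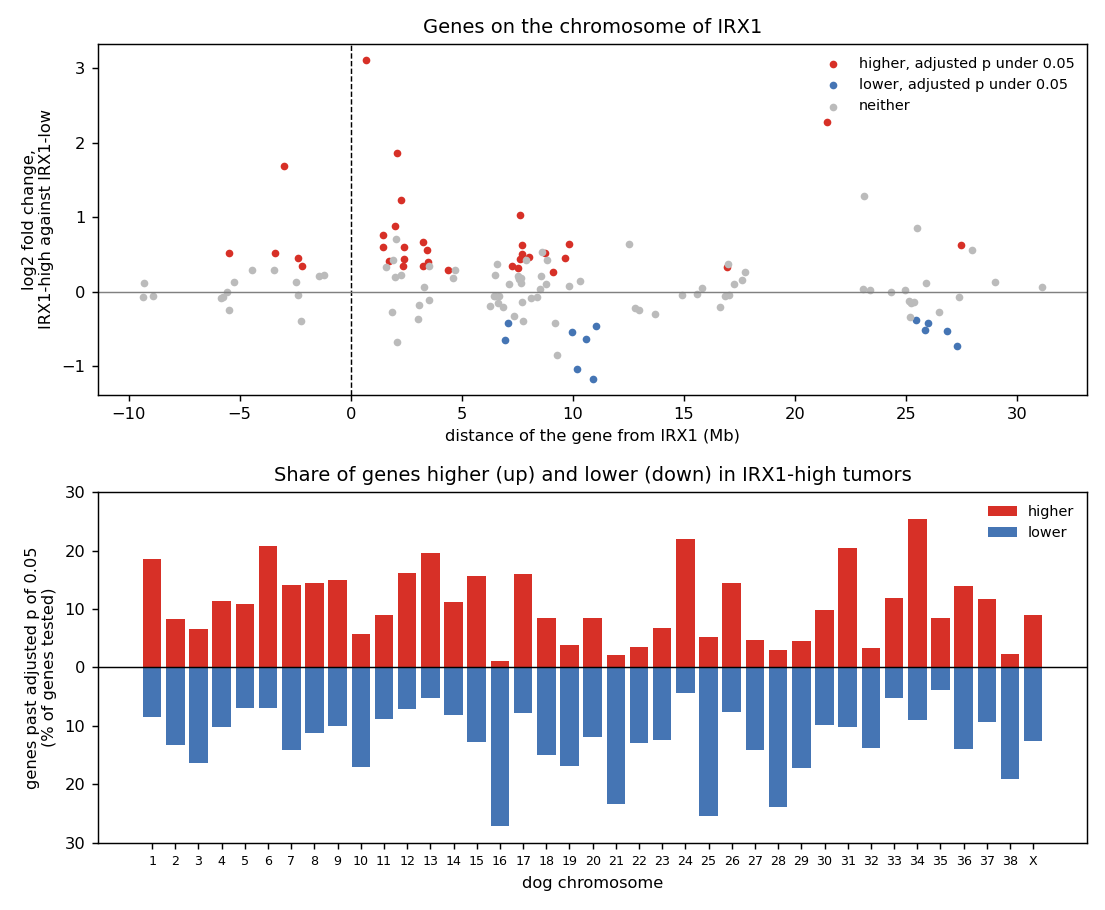
Above, log2 fold changes of 134 genes of chromosome 34 against their distance from IRX1 in Mb, red and blue where the adjusted p was under 0.05. Below, the percentage of the tested genes of each chromosome that rose (up) or fell (down): 25.4% rose on chromosome 34 and 27.2% fell on chromosome 16.

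The shares called also varied over the other chromosomes, which were singled out after their values were seen. The share that rose was 21.9% on chromosome 24, 20.8% on chromosome 6, 20.5% on chromosome 31 and 19.5% on chromosome 13, and 1.18% on chromosome 16. The share that fell was 27.2% on chromosome 16, 25.5% on chromosome 25, 23.8% on chromosome 28 and 23.4% on chromosome 21. The median log2 fold change on chromosome 16 was -0.24, with -0.22 within COTC021 and -0.24 within COTC022. On chromosome 13 it was 0.16, with 0.18 and 0.14 within the trials. On chromosome 25 it was -0.15 but was -0.32 within COTC021 and 0.01 within COTC022. ZCCHC3, SNRPB and AURKA lie on chromosome 24.

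The study's ISA 4 signature, a bicluster of genes that it derived on these same samples and that contains IRX1, is not independent evidence of a direction. All 38 other genes passed the filter and had a positive value, 28 rose, and the median was 1.83 (25 and 1.78 without the 5 libraries, and 1.17 within COTC022). Of the 15 genes with the largest increase, 8 belong to it. The other 7 are IRX2, DDX43, EPHB2, ZIC1, ALDH1A1, H19 and GPC3. ISA 4 genes also count in the HOX, limb, cartilage, hedgehog, osteoblast and Wnt lists, for example HOXB13, BARX1, IHH, SMPD3 and APCDD1L. The counts of those lists are therefore not independent of that signature.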

How the data were processed

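The deposited table holds expected counts per gene, which the authors estimated with RSEM 1.3.1 after trimming with Cutadapt and alignment with STAR 2.7.0f to the GSD_1.0 assembly (paired stranded mRNA reads from frozen tumor tissue). Of its values 3.07% were not whole and were rounded, and 12 of its 198 columns were not used. Library totals ran from 6587634 to 27420867. Each library is a different dog, and no 2 libraries had identical counts (largest correlation of log2 values 0.9866).

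Dogs at or above the 75th percentile of IRX1 CPM were compared with those at or below the 25th. A filter on low counts (filterByExpr, with a minimum count of 10, a large.n of 5 and a min.prop of 0.5) kept 13422 of 37952 genes over 186 dogs. TMM factors and limma-voom were used (limma 3.58.1, edgeR 4.0.16, R 4.3.3), with the GS-1 cluster, as the study lists it per dog, and the column-name style as further terms. P-values were adjusted by Benjamini-Hochberg over all 13421 genes other than IRX1, and each adjusted p without a named tool is from this fit.

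Named by rule were the Iroquois genes, the 15 largest and 10 smallest log2 fold changes among called genes with a symbol and the same sign in each cluster, style and trial, the 10 smallest adjusted p of these, and members of the lists. The groups and lists were chosen with earlier results of these data known, and the gene families, the distance limits beyond 2 Mb and the libraries that stood apart after the values were seen. Alternatives were edgeR and DESeq2 1.42.0, no filter, other size factors and terms, IRX1 as a continuous term, other group limits, and fits within trials, styles and clusters.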

Additional observations from a re-analysis of the deposited data

How the results depend on the processing

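The fit of the report called 1553 higher and 1565 lower genes, with 93 and 26 DEGs. Without the GS-1 cluster as a term the counts were 2915 and 3036, with 171 and 65 DEGs, and with IRX1 as a continuous term over all dogs 2456 genes were higher. Within subsets of the dogs fewer genes were called, namely 724 and 767 in the single-separator libraries, 751 and 970 within COTC021 (57 lower DEGs), 480 and 218 within FP, and 488 and 726 within PP dogs (57 higher DEGs). They were 1 and 0 within COTC022 (1 and 0 DEGs) and 0 and 0 in the doubled-separator libraries (0 DEGs), and 64 and 21 for the slope in the middle dogs. Higher and lower DEGs numbered 49 and 96 with edgeR and 48 and 60 with DESeq2, higher DEGs 195 with no filter on low counts, and lower DEGs 11 with tertiles of IRX1, 15 without the 3 libraries with LUM near 0 and 16 without the 5 libraries that stood apart. Without the latter, COTC022 and the doubled-separator libraries gave 0 and 0 calls and 0 DEGs, and COTC021 gave 649 and 663. The cause of the shift between tools was not tested. The counts within 1.5 times the main ones are not repeated.

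Some log2 fold changes changed sign under an alternative. With edgeR and DESeq2, IRX5 was at -0.16 and -0.15, NKD2 at -0.16 and -0.15 and SOX9 at -0.037 and -0.030. In the middle dogs, BGN had a slope of 2.3e-05, BMPR2 0.0099, COL1A1 0.26, H19 -0.024, HOXA13 -0.17, IRX5 -0.067, LRRC15 0.44, NKD1 -0.16, NOTCH1 0.012, SPARC 0.030, THY1 -0.0068 and TPPP 0.11. Within COTC022, CXCL14 was at 0.53, DLX3 -0.024, GLI1 -0.97, MKI67 -0.010, NFKBIA 0.084, NOG -0.34, PDGFRA -0.45, PTCH1 -0.40, SLC12A7 0.12, SOX9 -0.084, TPPP 0.83 and WNT5B 0.13. Within COTC022 without the libraries that stood apart, CXCL14 was at 0.76, DLX3 -0.065, FOXM1 -0.14, GLI1 -1.45, HOXD9 -0.19, MKI67 -0.17, NFKBIA 0.15, NOG -0.17, PDGFRA -0.55, PTCH1 -0.74, SFRP4 0.31, SLC12A7 0.21, TPPP 0.95 and WNT5B 0.038. Within FP dogs, ITGB3 was at 0.084, NDRG1 0.19, PDGFRA -0.44, RELB 0.056, SLC12A7 0.31, SOX9 -0.58, THY1 -1.04 and TNFAIP3 0.033. In the doubled-separator libraries, GLI1 was at -0.31, MKI67 -0.062, NKD2 -0.15, PDGFRA -0.32, PFKFB3 0.018, PTCH1 -0.30, RELA 0.091, SFRP4 0.17 and SOX9 -0.19, and without the libraries that stood apart DPT was at 0.079, GLI1 -0.61, MKI67 -0.40, PDGFRA -0.44, PFKFB3 0.072, PTCH1 -0.53, RELA 0.11, RUNX2 -0.038, SFRP4 0.48 and SOX9 -0.23. With IRX1 as a continuous term over all dogs, the slopes of THY1 and PDGFRA were -0.032 and -0.0032. The log2 fold change of THY1 was -0.039 with tertiles and -0.21 within COTC021 (-0.032 without the libraries that stood apart). It was -0.21 in the single-separator libraries, where HOXD9 was at -0.0085, -0.27 without the cluster and -0.027 without the muscle-rich library. The log2 fold change of PDGFRA was -0.016 with groups set by TMM-normalized IRX1, -0.030 without the libraries with LUM near 0 and -0.076 without all 5, where PTCH1 was at -0.017.

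Of the 112 named genes called, 28 lost the call with edgeR, 18 with DESeq2, 21 with no filter on low counts and 17 without the 5 libraries. None lost it with DESeq2 size factors in limma-voom. Low counts limit IRX1 itself in IRX1-low dogs, and so the order of the dogs there.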
